A study of Mus musculus with 80 samples.

Results

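Nuclear genes of oxidative phosphorylation were followed in muscle stem cells (MuSCs) of extraocular muscle (EOM) and of tibialis anterior (TA), a limb muscle, before and after grafting. Members were every gene outside the mitochondrial chromosome whose symbol started with Nduf and a letter code with a number, Cox and a number, Uqcr or Atp5, or was Sdha, Sdhb, Sdhc or Sdhd. The rule found 98 members among 25899 genes. Of these, 75 code for subunits: 36 of complex I, 4 of complex II, 8 of complex III, 12 of complex IV and 15 of complex V. The other members were 8 tissue isoforms placed at complex IV, 11 genes classed as assembly factors and 4 further genes. Those 4 matched the rule by name and were put in no other class (Cox4nb, Atp5l-ps1, Atp5s and Atp5sl). All 75 subunit genes had at least 1 read in each of the 30 libraries, and 95 of the 98 members passed the detection filter, a level over 1 on the log2 RPM scale (RPM, reads of a gene scaled to a common library total) in at least 4 libraries. Cox7b2, Cox8c and Atp5l-ps1 did not pass it and were read in 2, 2 and 3 libraries.

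All donors were adult male mice carrying Tg:Pax7-nGFP, a transgene in which the Pax7 gene drives nuclear GFP in MuSCs. The labels give donor ages of 7.6 weeks for Experiment 1 and 7 weeks for Experiment 2. MuSCs were sorted by GFP from EOM and TA of each donor, and a portion was kept ungrafted and sequenced (pre-graft). Cells of both muscles were also grafted into the 2 cardiotoxin-injured TA muscles of a single immunodeficient Rag2-/-;γC-/- recipient and sorted again by GFP (graft), on day 21 per the labels. Of 40 RNA libraries, 30 passed the study's quality table: 8 EOM pre-graft, 8 TA pre-graft, 7 EOM graft and 7 TA graft. Experiment 1 gave 3, 2, 1 and 1 of these libraries, and Experiment 2 gave the rest.

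The respiratory chain sits in the inner mitochondrial membrane. Complex I (NADH dehydrogenase) and complex II (succinate dehydrogenase, which is also an enzyme of the tricarboxylic acid cycle) pass electrons through complex III to complex IV (cytochrome c oxidase), and complex V (ATP synthase) uses the proton gradient that results. Complexes I, III, IV and V are built from products of 2 genomes, since a small set of their subunits is coded in mitochondrial DNA, and complex II is coded wholly in the nucleus. Resting MuSCs hold few mitochondria, whereas differentiated muscle fibres are rich in them and use muscle isoforms of several complex IV subunits.

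The recovered reads on genes were 963432 to 4169357 per library. Reads from mitochondrial DNA made up 2.91% to 59.6% of a library, with means of 4.48% in EOM pre-graft, 11.3% in TA pre-graft, 31.4% in EOM graft and 24.9% in TA graft libraries. Pre-graft libraries held 500 cells, whereas grafts held far fewer, down to 9 cells (EOM) and 16 cells (TA). MuSC markers (8 genes, Pax7 and Myf5 among them) were present in every library, but their summed level was 9416 to 16448 nuclear RPM (scaled on reads outside mitochondrial DNA only) before grafting and 933 to 11630 in grafts. Endothelial markers (7 genes) moved the other way, from 13 to 1895 before grafting to 136 to 6759 in grafts, and all 7 of them were read in all 14 graft libraries. In these bulk libraries fewer cells of a type and less RNA per cell cannot be told apart. All levels below are relative: a gene's log2 RPM minus the median of the 14428 detected genes in the same library, so 1 unit is a doubling relative to that median.

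As a class, subunit genes of the 5 complexes were well above the median gene in every library, and their level barely separated the groups. The median subunit stood at 2.69 ± 0.18 (SD, n = 8) in EOM pre-graft, 2.72 ± 0.37 (n = 8) in TA pre-graft, 2.80 ± 0.40 (n = 7) in EOM graft and 2.69 ± 0.25 (n = 7) in TA graft libraries. The lowest library was a TA pre-graft library at 2.09 and the highest an EOM graft library at 3.58, so the 4 groups overlapped throughout. Subunits of complexes III, IV and V had group means from 3.12 to 3.46, those of complex II from 2.32 to 2.67 and those of complex I from 2.11 to 2.29. Complex II had the widest spread in grafts, with an SD of 0.68 in EOM and 0.54 in TA grafts against 0.14 in EOM and 0.43 in TA pre-graft libraries. As a share of nuclear gene reads, the 5 complexes together took 1.23% ± 0.10 (EOM pre-graft, n = 8), 1.28% ± 0.21 (TA pre-graft, n = 8), 1.16% ± 0.18 (EOM graft, n = 7) and 1.12% ± 0.08 (TA graft, n = 7).

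**Figure D1:**
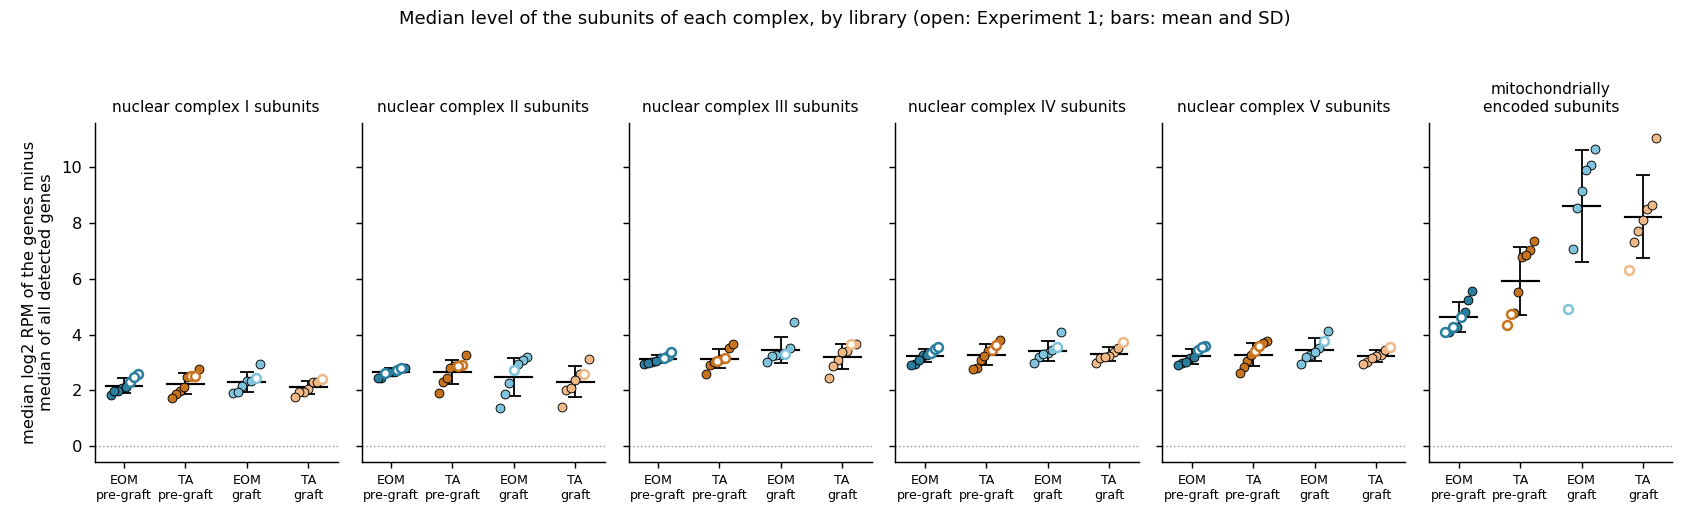
Median relative log2 level of the subunit genes of each nuclear-coded complex and of the 13 mitochondrially encoded subunits, with 1 point per library (open points, Experiment 1; bars, mean and SD) and the 4 groups along the x axis. The group means of the nuclear-coded classes lie within 2.11 to 3.46 and the groups overlap, whereas the mitochondrially encoded subunits have group means from 4.62 to 8.61.

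The 13 mitochondrially encoded subunits, which work in the same complexes, did not stay level. Their median was 4.62 ± 0.54 in EOM pre-graft (n = 8), 5.92 ± 1.21 in TA pre-graft (n = 8), 8.61 ± 2.02 in EOM graft (n = 7) and 8.23 ± 1.47 in TA graft libraries (n = 7). They took 4.84%, 14.5%, 44.3% and 38.4% of all gene reads in the 4 groups. The nuclear-coded subunits of the 5 complexes took 1.18%, 1.11%, 0.665% and 0.696% of all gene reads. A larger mitochondrial share lowers these shares by construction. Of nuclear gene reads alone the same subunits took 1.23%, 1.28%, 1.16% and 1.12%. mt-Nd2, a complex I subunit, was higher in TA than in EOM before grafting by 1.80 log2 units (adjusted p = 0.0224). It rose on grafting by 2.59 in TA MuSCs (adjusted p = 0.00707) and by 4.74 in EOM MuSCs (adjusted p = 9.4e-05). Here and below, changes are limma estimates, p-values are two-sided and adjusted by Benjamini-Hochberg across the genes of each comparison, and called means an adjusted p under 0.05. The level in mitochondrial DNA moved with the experiment. In Experiment 1 the single EOM graft and the single TA graft stood at 4.90 and 6.30. In Experiment 2 the grafts stood at 7.05 to 10.6 and 7.31 to 11.0. Before grafting, mean levels were 4.33 (EOM) and 4.54 (TA) in Experiment 1, and 4.79 and 6.38 in Experiment 2. The differences above leave out the EOM pre-graft library of mouse 3 of Experiment 2. It met the study's written thresholds, but the authors dropped it as unlike the rest of its group. Mitochondrial DNA gave 24.7% of its gene reads, against 9.18% at most in the kept EOM pre-graft libraries. The nuclear-coded median differed less between experiments, with group means of 2.85 to 2.98 in Experiment 1 and 2.59 to 2.77 in Experiment 2.

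The first comparison asked how EOM and TA MuSCs differed before grafting. Of 94 members tested, 1 was higher in TA (Ndufc2) and 1 was lower (Cox11), where 2.84% of all 13217 genes tested were called higher and 2.91% lower. The remaining 92 members were not called. The median change (TA minus EOM) was 0.03 over the members and −0.05 over all genes tested. Class medians were 0.10 for complex I, 0.13 for complex II, 0.01 for complex III, 0.07 for complex IV and 0.00 for complex V. At an unadjusted p under 0.05 there were 5 members and 2406 genes.

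Ndufc2 codes for an accessory subunit of complex I and lies on the plus strand at chr7:97400003-97407802 (GRCm38; ENSMUSG00000030647). Its relative level had a lowest, median and highest value of 0.40, 0.88 and 1.38 in EOM pre-graft libraries (82 to 137 reads) and of 1.29, 1.77 and 2.36 in TA pre-graft libraries (56 to 174 reads). The ranges met only at their edges, and 7 of 8 TA libraries lay above the highest EOM library. The difference was 0.81 (SE 0.19, adjusted p = 0.00971) and was 0.87 in Experiment 2 alone (adjusted p = 0.0486) and 0.87 in Experiment 1 alone (adjusted p = 0.118). Centred on the genes read in each library it was 0.65 (adjusted p = 0.0706). No other complex I subunit was called: the one with the next smallest p, Ndufs8, a core iron-sulphur subunit, had a difference of 0.51 (adjusted p = 0.232). The 4 subunits of complex II differed by 0.19 (Sdha), 0.07 (Sdhb), 0.01 (Sdhc) and 0.24 (Sdhd), and none was called. In complex III the lowest p was that of Uqcrc2, a core protein, at −0.23 (adjusted p = 0.573), and in complex V that of Atp5c1, the gamma subunit of the rotor, at 0.16 (adjusted p = 0.57).

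Cox11 codes for an assembly factor that delivers copper to complex IV (chr11:90638173-90644931, plus strand; ENSMUSG00000020544). It stood at −0.17, 0.15 and 0.91 (lowest, median, highest) in EOM pre-graft libraries, with 46 to 108 reads. In TA pre-graft libraries it stood at −4.17, −1.17 and −0.18, with 2 to 35 reads, and no TA library reached the lowest EOM library. The difference was −1.74 (SE 0.49, adjusted p = 0.0354). It was −1.34 with the donor as a block (adjusted p = 0.0663), −1.89 in Experiment 2 alone (adjusted p = 0.173) and −1.10 in Experiment 1 alone (adjusted p = 0.249). The adjusted p passed 0.05 when any of 8 of the 16 libraries was left out (0.0515 to 0.0741), namely the EOM libraries of mice 1, 5 and 6 of Experiment 2 and mice 3, 4 and 5 of Experiment 1, and the TA libraries of mice 5 and 6 of Experiment 2. With the donor block, Cox4i2 was called higher in TA and Cox11 was not called. Without it Cox4i2 stood at 1.87 (adjusted p = 0.215) and Ndufa4l2 at 1.77 (adjusted p = 0.368), and Notch3 and Myh11, of the 9 pericyte and smooth muscle markers, were higher in TA.

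The second comparison asked what changed when TA MuSCs were grafted back into TA. Of 95 members tested, 3 rose (Uqcrq, Cox4i2 and Ndufa4l2) and 3 fell (Sdha, Atp5g2 and Atp5a1). Over all 13076 genes tested, 8.61% were called higher and 6.0% lower. The members' median change was −0.08, with −0.17 over all genes. Above 0 lay 35 members and below it 60, against 5650 and 7426 of all genes tested. Class medians were −0.10 for complex I, −0.24 for complex II, 0.03 for complex III, −0.07 for complex IV and −0.04 for complex V. There were 14 members and 3883 genes at an unadjusted p under 0.05. In the same comparison 7 of 8 MuSC markers fell and 7 of 7 endothelial markers rose.

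Uqcrq, a small subunit of complex III on the minus strand at chr11:53427922-53430831 (ENSMUSG00000044894), was the subunit gene that rose. It stood at 2.88, 3.44 and 4.20 (lowest, median, highest) in TA pre-graft and at 4.01, 4.50 and 5.23 in TA graft libraries, so the ranges overlapped at their edge. Reads were 302 to 660 before and 116 to 901 after grafting. The change was 0.95 (SE 0.23, adjusted p = 0.00782), or 0.93 with the donor as a block (adjusted p = 0.0403). It was 0.91 in Experiment 2 alone (adjusted p = 0.0551).

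Sdha, the catalytic flavoprotein of complex II (chr13:74322254-74350280, minus strand; ENSMUSG00000021577), fell by 1.27 (adjusted p = 0.0263). Its TA pre-graft libraries stood at 3.29, 3.57 and 3.84 and its TA graft libraries at −0.32, 2.68 and 3.16 (lowest, median, highest), without overlap. The lowest graft, of mouse 3 in Experiment 2, had 4 reads of Sdha, 16 cells and 46.8% of its reads from mitochondrial DNA. It was the only TA graft over 40% of such reads, and without it the change was −0.84 (adjusted p = 0.00918). In Experiment 2 alone it was −1.42 (adjusted p = 0.0640). Leaving out the TA pre-graft library of mouse 5 in Experiment 2 raised its adjusted p to 0.0507. The other 3 subunits of complex II were not called: Sdhb, the iron-sulphur subunit, changed by −0.17, and the membrane anchors Sdhc and Sdhd by −0.23 and −0.25.

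Both other genes that fell belong to complex V. Atp5g2, one of the genes for subunit c of the membrane ring (chr15:102663014-102667749, minus strand; ENSMUSG00000062683), stood at 2.04, 2.75 and 3.17 before and at 1.10, 1.84 and 2.29 after grafting (lowest, median, highest). It fell by 0.89 (SE 0.26, adjusted p = 0.0251), and with the donor block the change was −0.83 (adjusted p = 0.0975). Atp5a1, the alpha subunit of the catalytic head, stood at 4.28, 4.56 and 4.91 before and at 3.61, 3.85 and 4.58 after grafting. It fell by 0.60 (SE 0.19, adjusted p = 0.0344), and with the donor block the change was −0.61 (adjusted p = 0.109). Both ranges overlapped at their edges. Leaving out any of 9 of 15 libraries raised the adjusted p of Atp5a1 to 0.0512 to 0.0776: the TA grafts of mice 1, 2, 3 and 5 and the TA pre-graft libraries of mice 1, 4 and 5 of Experiment 2, and the TA pre-graft libraries of mice 3 and 4 of Experiment 1. For Atp5g2 this was so without the TA pre-graft library of mouse 4 of Experiment 1 or of mouse 4 of Experiment 2 (0.0528 and 0.0561). Ndufa10, a complex I subunit at −0.85 (adjusted p = 0.0618), lay just past the threshold. It was called lower by edgeR (adjusted p = 0.0489) and DESeq2 (adjusted p = 0.0465) and under each other centring. Other members with low p that were not called were Ndufv3, a subunit of the NADH-binding module of complex I, at −1.18 (adjusted p = 0.114), Uqcrc1, a core protein of complex III, at −0.68 (adjusted p = 0.166), and Cox11 at 1.44 (adjusted p = 0.187).

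Promoter letters are shown for the called subunit genes whose window in the RefSeq promoter table (GRCm38.p6; 250 bases before to 50 after the start) held a motif of a factor known for nuclear genes of mitochondria. The table held 76 of the 98 members and 63 of the 75 subunit genes, among 27025 genes. Motifs were searched on both strands, and a gene counted where any of its windows held a match. The NRF1 motif GCGCANGCG was found for 20 of the 63 subunit genes (31.75%) and for 7.034% of all genes. By complex this was 8 of 32 for complex I, 2 of 3 for complex II, 2 of 5 for complex III, 1 of 10 for complex IV and 7 of 13 for complex V. The ETS motif CCGGAAG was found for 25.4% of subunit genes and 9.928% of all genes, and the YY1 motif AAGATGGCG for 11.11% and 1.639%. The motif of the receptor ESRRA, TCAAGGTCA, was found for 2 subunit genes (Atp5g3 and Sdhd), or 3.175%, and for 0.4662% of all genes. The core of the hypoxia response element, ACGTG, was found for 22.22% and 21.78%. The NRF1 matches of Sdha and Atp5g2 are printed with 10 bases on either side, 5′ to 3′ on the minus strand, with the motif in capitals. They lie at chr13:74350320-74350348, chr13:74350277-74350305 and chr13:74350232-74350260 for Sdha (98, 55 and 10 bases before the start) and at chr15:102671070-102671099 for Atp5g2 (42 bases before a start that lies upstream of the gene as the deposited annotation places it, with 2 overlapping matches).
Sdha, first: cgtttacaggGCGCAGGCGcaccaccact
Sdha, second: ggggcgtgttGCGCAGGCGcagaatcttc
Sdha, nearest the start: gcgactcggtGCGCAAGCGcagtctgtcg
Atp5g2: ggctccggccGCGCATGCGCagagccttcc
The first Sdha window overlaps an exon of Ccdc127, a gene on the plus strand, and the others overlap exons of Sdha or Atp5g2 in GENCODE vM21. The windows of Ndufc2 and Cox11 held none of these motifs.

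The third comparison asked what changed when EOM MuSCs were grafted into TA, outside their own muscle. Of 95 members tested, 7 rose (Cox6a2, Uqcrq, Atp5j, Cox8b, Cox4i2, Ndufa4l2 and Ndufc2) and 0 fell, where 7.97% of all 13094 genes tested were called higher and 4.54% lower. At an unadjusted p under 0.05 there were 13 members and 3532 genes. Of the MuSC markers 1 of 8 fell, and 6 of 7 endothelial markers rose. The members' median change was 0.12 and that of all genes −0.15, but the members' median was −0.08 when libraries were centred on genes read in all 30 of them and −0.14 when scaled without mitochondrial genes. A change of centring shifts all genes alike, so the members' median lay 0.27 above that of all genes under each of them by construction, and it lay 0.06 above it by edgeR and 0.08 above it by DESeq2. Under those 2 centrings, edgeR and DESeq2, Atp5a1 and Atp5d, both of the F1 part of complex V, were called lower. Centring also moved the split of all calls: 63.7% of the called genes were higher in the main fit, 45.2% when centred on genes read in all 30 libraries, 42.2% when scaled without mitochondrial genes, 18.1% when centred on the genes read in each library and 5.79% on the deposited scale. For TA grafts these shares were 59.0%, 53.0%, 47.5%, 35.7% and 10.8%.

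**Figure D2:**
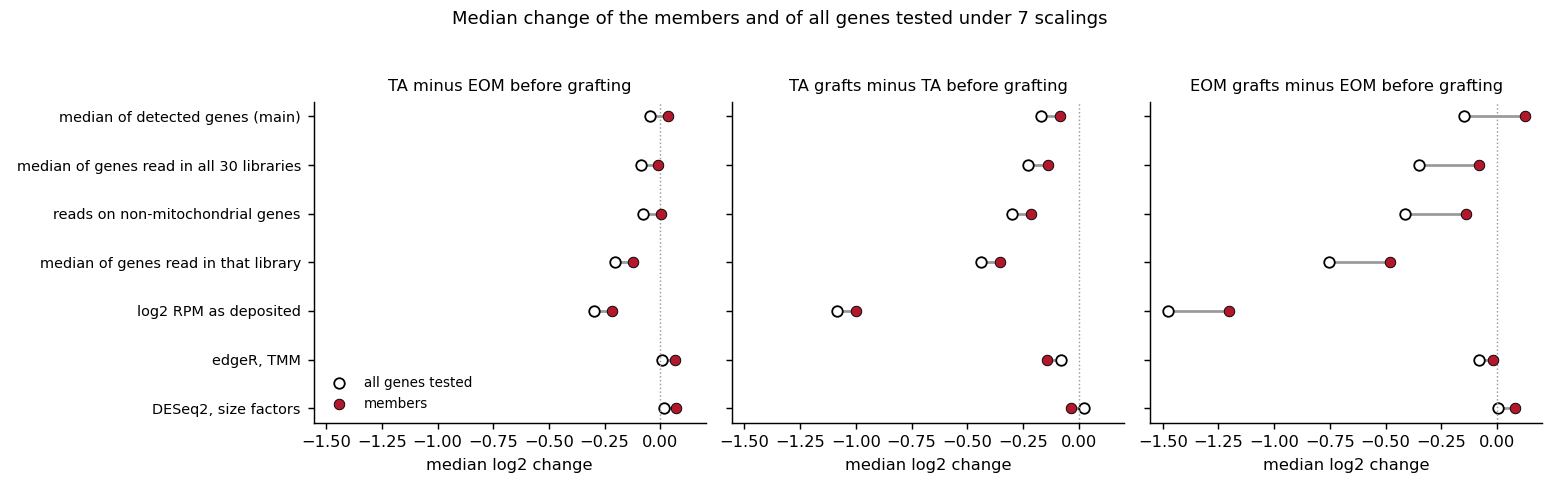
Median log2 change of the members (red) and of all genes tested (open) under 7 scalings of the libraries, in 3 comparisons. On the deposited scale the members' medians are −0.22, −1.0 and −1.2 and those of all genes −0.30, −1.09 and −1.48, and in EOM grafts the sign of the members' median depends on the scaling.

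Uqcrq rose in EOM grafts as well. It stood at 3.08, 3.44 and 3.76 (lowest, median, highest) in EOM pre-graft libraries, with 476 to 754 reads, and at 3.72, 4.26 and 5.02 in EOM grafts, with 179 to 592 reads. The highest pre-graft library lay just above the lowest graft. The change was 0.84 (SE 0.20, adjusted p = 0.00999), and with the donor block the adjusted p was 0.0779. Atp5j, the coupling factor 6 subunit of the complex V stalk (chr16:84827866-84835625, minus strand; ENSMUSG00000022890), went from 3.50, 3.75 and 4.11 to 4.16, 4.49 and 4.95 without overlap. Its change was 0.71 (SE 0.18, adjusted p = 0.0126), or 0.80 with the donor block (adjusted p = 0.0944) and 0.52 by edgeR (adjusted p = 0.0548). In TA grafts Atp5j changed by 0.47 (adjusted p = 0.191). Ndufc2 went from 0.40, 0.88 and 1.38 to 1.43, 1.80 and 2.62 without overlap, a change of 0.90 (SE 0.27, adjusted p = 0.035), or 0.98 with the donor block (adjusted p = 0.164). Leaving out the EOM pre-graft library of mouse 1, 2, 4, 5 or 6 of Experiment 2 or of mouse 3 of Experiment 1 raised its adjusted p to 0.0535 to 0.0761. In TA grafts Ndufc2 changed by −0.30 (adjusted p = 0.579), and the test of the difference between the changes in EOM and TA gave 1.2 (adjusted p = 0.38). Centred on the genes read in each library, the EOM graft changes of Uqcrq, Atp5j and Ndufc2 were 0.23 (adjusted p = 0.419), 0.11 (adjusted p = 0.704) and 0.29 (adjusted p = 0.405). Scaled without mitochondrial genes, Atp5j changed by 0.45 (adjusted p = 0.0535) and Ndufc2 by 0.64 (adjusted p = 0.0843), and with all libraries Atp5j changed by 1.05 (adjusted p = 0.105) and Uqcrq by 1.15 (adjusted p = 0.0614). Not called in EOM grafts were Ndufs6, an accessory subunit of complex I, at 0.59 (adjusted p = 0.127), Uqcrb, a subunit of complex III, at 0.58 (adjusted p = 0.108), and Atp5d, the delta subunit of complex V, at −0.56 (adjusted p = 0.158). Complex II had no call, with Sdha at −0.59 (adjusted p = 0.292), Sdhb at −0.09, Sdhc at 0.11 and Sdhd at −0.04. On the same relative scale Sdha had stood at 3.01, 3.35 and 3.69 (lowest, median, highest) before and at 1.18, 3.39 and 3.72 after grafting, with 1 graft far below the others.
The window of Atp5j, taken at the second of its 2 starts in the table, held a YY1 match at chr16:84835046-84835074 (88 bases before the start) and an ETS match at chr16:84835021-84835047 (61 bases before it), shown on the minus strand with the motif in capitals. Both overlap exons of Atp5j, and the second also an exon of Gabpa on the plus strand.
Atp5j, YY1: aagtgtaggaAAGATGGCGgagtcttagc
Atp5j, ETS: gctgagggacCCGGAAGcacttaccct

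**Figure D3:**
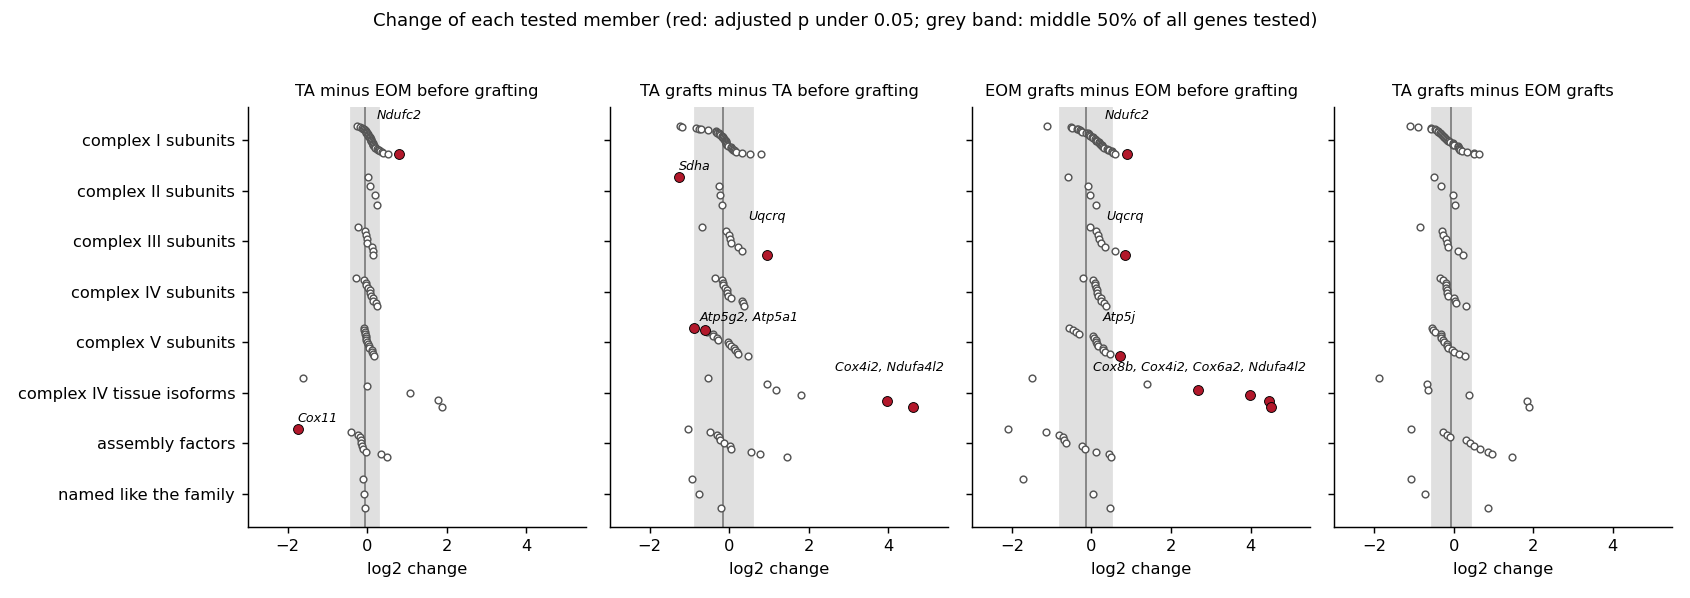
Log2 change of each tested member by class in 4 comparisons (red, adjusted p under 0.05; grey band, middle 50% of all genes tested; line, their median). Most subunits lie inside the grey band, the tissue isoforms lie farthest from 0, and no member is red between TA and EOM grafts.

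Among the members, the strongest changes on grafting were in the tissue isoforms of complex IV. The 12 genes classed as its nuclear-coded subunits had medians of −0.07 in TA and 0.14 in EOM grafts. Cox4i2 is the isoform of subunit IV known from lung and hypoxic cells, and Ndufa4l2 is a hypoxia-induced relative of Ndufa4. Cox4i2 lies on the plus strand at chr2:152754173-152765037 (ENSMUSG00000009876) and Ndufa4l2 on the plus strand at chr10:127514939-127517152 (ENSMUSG00000040280). In TA pre-graft libraries Cox4i2 had 0 to 29 reads and a relative level of −5.32, −3.26 and −0.31 (lowest, median, highest), and in TA grafts it had 13 to 180 reads and −0.76, 0.77 and 2.40. The ranges overlapped slightly. The change was 3.97 (SE 0.80, adjusted p = 0.00226). Ndufa4l2 went from 0 to 57 reads (−5.61, −2.63 and 0.66) to 29 to 248 reads (0.84, 1.96 and 3.37) without overlap, a change of 4.62 (SE 0.87, adjusted p = 0.00143).

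In EOM grafts the same pair split by library. Cox4i2 had 0 to 10 reads before grafting (−6.42, −5.47 and −2.20) and 0 to 49 in grafts (−5.64, 0.38 and 1.81), a change of 3.99 (SE 1.09, adjusted p = 0.0207) that was not called with the donor block (adjusted p = 0.109). Ndufa4l2 had 0 to 17 reads before (−6.42, −4.93 and −1.23) and 0 to 131 after grafting (−5.64, 1.63 and 3.45), a change of 4.50 (SE 1.31, adjusted p = 0.028; with the donor block, 0.130). The EOM grafts of mouse 4 in Experiment 1 and mouse 2 in Experiment 2 had 0 reads of both genes, and the other 5 had at least 10 reads of Cox4i2 and at least 20 of Ndufa4l2. Without the 2 EOM grafts over 40% of mitochondrial reads the changes were 3.20 (adjusted p = 0.0953) and 3.65 (adjusted p = 0.114). Leaving out the EOM graft of mouse 1, 3, 4, 5 or 6 of Experiment 2, or the EOM pre-graft library of mouse 2, 4, 5 or 6 of Experiment 2, raised the adjusted p of Ndufa4l2 to 0.0501 to 0.0645. Since a gene without a read is set at 0.9 read, fitted changes of such genes depend on that value. They also depend on the median subtracted, whose mean was 4.75 in EOM pre-graft and 3.42 in EOM graft libraries (TA, 4.49 and 3.58). A lower median places genes without a read higher on the relative scale. Without the filter, the median change over all genes was 1.39 in EOM and 0.86 in TA grafts. Cox4i2, with 20 reads over all EOM pre-graft libraries, passed the filter there only with the EOM grafts, so that fit favoured a rise. Counted over whole groups, the nuclear RPM of Cox4i2 was 9.15 times higher in TA grafts (95% interval 7.16 to 11.8, exact, counting error only) and 19.7 times higher in EOM grafts (12.3 to 33.3), and Ndufa4l2 was 8.68 (7.26 to 10.4) and 29.2 times higher (20.8 to 42.2).

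Set against their partners Cox4i1 and Ndufa4 within each library, both isoforms rose in TA grafts. The log2 ratio of Cox4i2 to Cox4i1 was higher by 4.08 (exact permutation test, two-sided, p = 0.0012, adjusted over 20 ratios p = 0.0083), and that of Ndufa4l2 to Ndufa4 by 4.65 (adjusted exact permutation p = 0.0083). In EOM grafts the differences were 3.95 (adjusted exact permutation p = 0.0510) and 4.42 (adjusted exact permutation p = 0.0611). In a test within donors by sign flips, 7 donors allow an exact p of 0.0156 at the lowest and 6 donors 0.0312, so adjustment over 20 ratios leaves little room. In TA grafts the ratios of Cox4i2, Ndufa4l2 and Cox7a1 to their partners stood at that lowest p of 0.0156, as they were higher in 7 of 7 donors (by 4.11, 4.48 and 1.37), with an adjusted exact p of 0.0781 each. Cox4i1 itself changed by −0.11 in TA and 0.04 in EOM grafts and was not called.

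Pericyte and smooth muscle markers moved along with these isoforms. Their sum over 9 genes, in nuclear RPM, was 651, 791 and 904 (lowest, median, highest) in EOM pre-graft, 604, 950 and 1981 in TA pre-graft, 661, 2488 and 8816 in EOM graft and 968, 4856 and 7594 in TA graft libraries, and no marker of the list was at 0 throughout a group. The 2 EOM grafts without a read of Cox4i2 and Ndufa4l2 had sums of 697 and 661, and the others at least 1653. These 2 libraries also had the lowest endothelial sums of the EOM grafts, 136 and 729, and high MuSC marker sums of 11630 and 10626. Rgs5, a pericyte marker, rose by 4.06 in TA (adjusted p = 0.000523) and by 5.03 in EOM grafts (adjusted p = 0.0182). Of the 9 pericyte markers 3 rose in TA grafts and 2 in EOM grafts, and of the 7 endothelial markers 7 and 6. The part of these cells in the change of Cox4i2 and Ndufa4l2, and of every other member, was not tested.

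**Figure D4:**
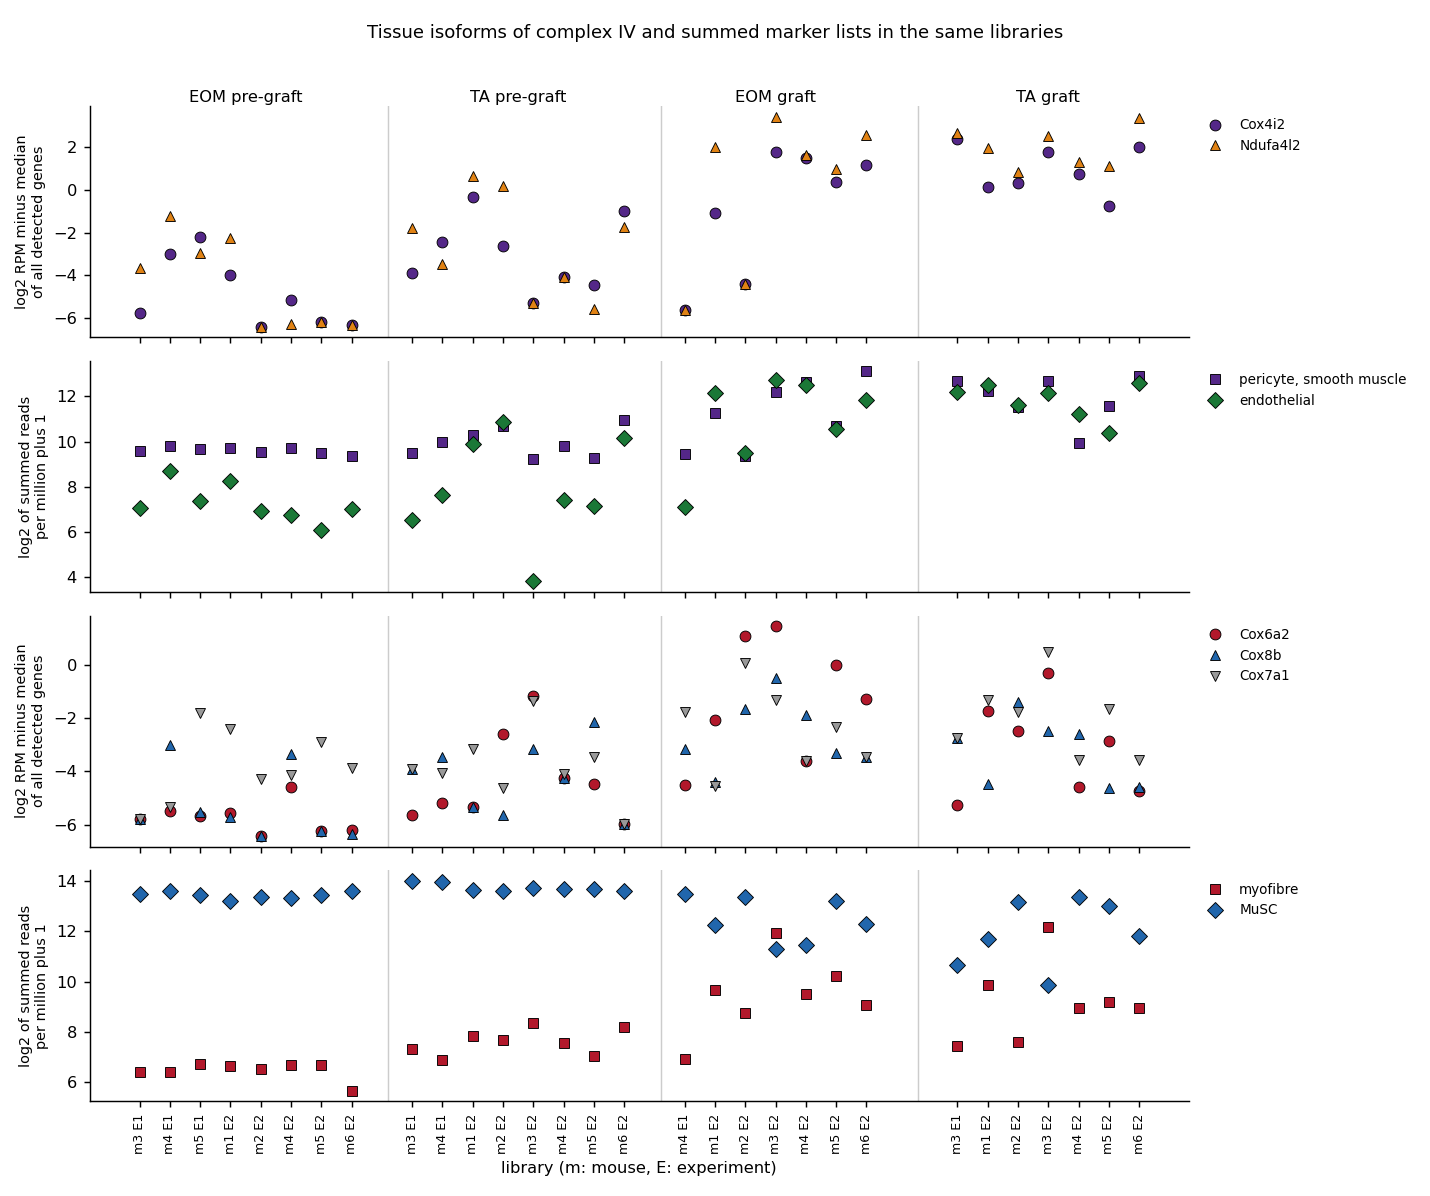
Libraries along the x axis by group, with, from top to bottom, the relative log2 level of Cox4i2 and Ndufa4l2, the summed pericyte and smooth muscle and the summed endothelial markers, the relative log2 level of the muscle isoforms Cox6a2, Cox8b and Cox7a1, and the summed myofibre and MuSC markers (sums as log2 of nuclear RPM plus 1). The 2 EOM grafts without a read of Cox4i2 and Ndufa4l2 have pericyte sums of 697 and 661.

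The isoforms of differentiated heart and skeletal muscle, Cox6a2, Cox7a1 and Cox8b, were near their floor before grafting. Cox6a2 (chr7:128205436-128206366, minus strand; ENSMUSG00000030785) had 0, 0, 0, 1, 0, 3, 0 and 1 reads in the EOM pre-graft libraries and 2, 5, 40, 27, 0, 10 and 9 in the EOM grafts. Its change was 4.46 (SE 0.80, adjusted p = 0.00121), or 4.01 with the donor block (adjusted p = 0.0456). With all libraries, those that failed the quality table included, it was 2.67 (adjusted p = 0.0766). In reads the groups overlapped, since the EOM graft of mouse 4 of Experiment 2 had 0. Cox6a2 passed the filter for testing through the EOM grafts alone, so the fit favoured a rise. Cox8b, with 13 reads over all EOM pre-graft libraries, passed it only with the grafts, so its fit favoured a rise as well. With the stricter filter (over 2 log2 RPM in at least 7 libraries), 90 members were tested in EOM grafts. Cox6a2, Cox8b and Cox4i2 were no longer among those tested, so their calls were lost without a test. Over the groups Cox6a2 went from 5 to 93 reads, 53.2 times higher in nuclear RPM (22 to 168). In TA it had 26 reads before and 20 after grafting, a ratio of 1.32 (0.696 to 2.45), with a fitted change of 1.18 (adjusted p = 0.372). The test of the difference between these changes gave 3.28 (adjusted p = 0.414), which did not pass. Cox8b (chr7:140898943-140900446, minus strand; ENSMUSG00000025488) rose by 2.67 in EOM grafts (SE 0.70, adjusted p = 0.0165) on 0 to 7 reads before and 1 to 7 reads after grafting. It was not called with the donor block (2.19, adjusted p = 0.137), by edgeR (adjusted p = 0.151) or by DESeq2 (adjusted p = 0.106), and with all libraries it was 1.0 (adjusted p = 0.501). Its ratio in nuclear RPM was 5.5 (2.71 to 11.7). Like those of Cox4i2 and Ndufa4l2, the fitted changes of these muscle isoforms hold the shift of genes without a read given above. Cox7a1 was not called, at 1.39 in EOM (adjusted p = 0.253) and 1.80 in TA grafts (adjusted p = 0.124). Against their partners in the same library, Cox6a2 to Cox6a1 rose by 4.22 (adjusted exact permutation p = 0.0062) and Cox8b to Cox8a by 2.56 (adjusted exact permutation p = 0.0163) in EOM grafts, whereas Cox7a1 to Cox7a2 differed by 1.06 (adjusted exact permutation p = 0.245). With all libraries the first 2 differences were 2.03 (adjusted exact permutation p = 0.366) and 0.56 (adjusted exact permutation p = 0.88). The ratios are not free of the floor either, since an isoform without a read is set at 0.9 read. Its ratio then rises where the partner has fewer reads. Nuclear reads summed over the EOM groups were 24369992 before and 8519515 after grafting.

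Myofibre markers were higher in grafts, and their relation to Cox6a2 across libraries was not tested. The sum of 10 of them, such as Acta1 and Ckm, was 49 to 104 nuclear RPM in EOM pre-graft, 117 to 323 in TA pre-graft, 118 to 3952 in EOM graft and 173 to 4570 in TA graft libraries. Of 9 tested, 7 rose in EOM grafts, and in TA grafts 3 rose and 1 fell (Actn3). In the order of the Cox6a2 reads listed above, the EOM grafts had myofibre sums of 118, 816, 433, 3952, 732, 1189 and 528. That order is mouse 4 of Experiment 1, then mice 1 to 6 of Experiment 2, and those reads are not scaled for depth. The sum of 4570 was that of a single TA graft, of mouse 3 of Experiment 2, and the other TA grafts had sums of 173 to 925. Without the graft libraries over 40% of mitochondrial reads Cox6a2 was read in too few libraries to be tested. The remaining isoform, Cox6b2, was not called in any comparison (−1.62 for TA minus EOM before grafting, adjusted p = 0.106).

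The last comparisons asked whether TA and EOM MuSCs differed after growing in the same muscle, and whether grafting changed them unequally. Between TA and EOM grafts 0 of 95 members were called in either direction, with 0.00% of 12377 genes called higher and 0.00% lower. No member had an unadjusted p under 0.05 by limma, against 583 genes in all. By edgeR 1 member and by DESeq2 2 members did. The members' median was −0.16 (TA minus EOM) and that of all genes −0.07. Members with low reads had the widest differences, such as Cox6a2 at −1.86, Cox4i2 at 1.85 and Ndufa4l2 at 1.89 (each with an adjusted p of 0.937). Among subunits Ndufab1, the acyl carrier protein of complex I, stood at −0.88 and Uqcrc1 at −0.84 (both with an adjusted p of 0.937). Ndufc2, which differed by 0.81 before grafting, stood at −0.40 between the grafts (adjusted p = 0.952), and Cox11 at 0.40 (adjusted p = 0.984). In the test of the change in EOM minus the change in TA, 0 members were called by limma, edgeR or DESeq2, with 0.0970% of 14428 genes called higher and 0.0693% lower, and 4 members had an unadjusted p under 0.05 by limma. The members' median there was 0.16 and that of all genes 0.10. These comparisons share their pre-graft or graft libraries with the earlier ones.

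Of the 11 members classed as assembly factors, Cox11 before grafting was the only one called in any comparison. In EOM grafts their median was −0.63, with Ndufaf1 at −2.09 (adjusted p = 0.136) and Cox10, the haem O synthase of complex IV, at −1.15 (adjusted p = 0.314). In TA grafts the median was −0.13, with Cox19 at 0.78 (adjusted p = 0.144). Outside the name rule, 27 further assembly factors gave 1 call in each graft comparison, both lower. Of all genes tested, 6.0% were called lower in TA and 4.54% in EOM grafts, so these counts are no result about the class. The calls were Timmdc1, a complex I factor listed as 4930455C21Rik, which fell by 2.18 in TA grafts (SE 0.67, adjusted p = 0.0325), and Ecsit, a complex I factor that fell by 2.40 in EOM grafts (SE 0.68, adjusted p = 0.0242).

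Other mitochondrial genes were read from short lists, for which counts near 0 are no result at the shares of all genes called on grafting (8.61% higher and 6.0% lower in TA, 7.97% and 4.54% in EOM). Of 7 genes of electron carriers 0 were called, with Cyc1 at −0.89 in TA (adjusted p = 0.0582) and Cycs at 0.67 in EOM grafts (adjusted p = 0.0622), and of 3 ATP synthase genes with other names 0 were called. Of 13 genes of the tricarboxylic acid cycle 0 were called. In both graft comparisons 12 of 13 lay below 0, with medians of −0.56 in TA and −0.27 in EOM. Of all genes tested, 7426 of 13076 lay below 0 in TA and 7395 of 13094 in EOM grafts, with medians of −0.17 and −0.15. Such counts depend on the centring. Idh3b, a subunit of isocitrate dehydrogenase, had the lowest p of the cycle genes in EOM grafts, at −0.76 (adjusted p = 0.0809). Of 12 regulators of mitochondrial biogenesis, Pprc1 fell by 0.74 in EOM grafts (SE 0.23, adjusted p = 0.0433), and Tfam, which packages mitochondrial DNA, stood at −2.41 in TA grafts (adjusted p = 0.0528). Of 76 genes of the mitochondrial ribosome tested, 1 was lower in TA before grafting (Mrpl9, where 2.91% of all genes were called lower), 7 fell in TA grafts (median −0.68; background 6.0%) and 3 fell in EOM grafts (median −0.26; background 4.54%). Mrps35 fell by 3.67 in TA (adjusted p = 0.00475) and Mrpl44 by 2.82 in EOM grafts (adjusted p = 0.00645).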

How the data were processed

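RNA of sorted cells was sequenced after physical separation from the DNA of the same cells, and the bisulfite libraries of that DNA were not analysed here. The authors trimmed reads with Trim Galore 0.4.4, aligned them to GRCm38 with HISAT2 2.1.0 and deposited 1 table of log2 RPM values per gene. How they counted reads that match several genes, as pseudogene copies of these members would, is not given in the sources used here. The deposited RPM of a gene without a read equals 0.9 read, and whole read counts were recovered from the deposited values (99.9971% within 0.05 read), 0 columns being left unused. The percent of reads in mitochondrial DNA and total read counts (3326270 to 14402975) came from the deposited summary report, and the pass for quality from the study's quality table, which left out 10 libraries.

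The median of the 14428 detected genes was subtracted in each library. Genes over 1 log2 RPM in at least 4 compared libraries were tested with limma 3.58.1 (R 4.3.3, trend, two-sided). Alternatives used edgeR 4.0.16 and DESeq2 1.42.0 on recovered counts, other centrings, filters and sample sets, and a donor block. Same-numbered libraries of the same experiment come from 1 donor, and numbers repeat between experiments. The mean correlation of deviations within a donor was 0.068, 0.0085, −0.053 and 0.029 in the 4 pairwise comparisons. Isoform ratios used exact permutation tests (Python 3.11.15, pandas 2.3.3, scipy 1.17.1). Code was tested on simulated data. Donors are separate animals, and libraries of 1 donor share it. Of 435 library pairs 0 were identical.

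Named were the 2 members with the lowest p in each class, the 10 isoform-pair genes, the 4 Sdh genes, the 3 called members with the largest change in each direction, and 1 gene of each further list, of which 1 is not reported here. Further names were chosen after their values were seen. Members and lists were chosen with earlier results of these data known.
Marker lists not given above had sums in nuclear RPM with medians, in the order EOM pre-graft, TA pre-graft, EOM graft and TA graft, of 802, 913, 2127 and 2686 for fibro-adipogenic, 24.6, 20.1, 38.4 and 32.2 for macrophage, 382, 15.4, 50.0 and 8.6 for Schwann, 0.7, 0.6, 2815 and 4.0 for erythroid, and 4.0, 1.1, 3.6 and 0.0 for lymphocyte genes. In TA grafts 4 fibro-adipogenic markers rose and 1 fell and 1 macrophage marker rose, and in EOM grafts 1 fibro-adipogenic and 1 erythroid marker rose.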

Additional observations from a re-analysis of the deposited data

Results flagged for a closer look

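Values that stood far from the other libraries of their group by Dixon's 95% value were looked for in 76 groups of values and found in 4, where chance gives about 1 in 20. The median of the complex III subunits was 4.447 in the EOM graft of mouse 2 of Experiment 2, with 3.01 to 3.51 in the other EOM grafts. Ndufc2 stood apart in the same library at 2.622, with 1.43 to 1.90 in the others. Cox11 was at −3.611 in the EOM graft of mouse 4 of Experiment 2, a library of 9 cells with 0 reads of the gene, and at −0.93 to 1.07 in the others. Sdha was at −0.3219 in the TA graft of mouse 3 of Experiment 2, with 4 reads, 16 cells and 46.8% of reads from mitochondrial DNA, and at 2.20 to 3.16 in the others. For 0 members did the change on grafting differ between EOM and TA by the test of that difference.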

How the results depend on the processing

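Counts of called members moved with the scaling and the sample set. Before grafting, members higher in TA were 0 on the deposited scale, when centred on the genes read in each library, in Experiment 1 alone and with a limit of 1 log2 unit, 3 without a filter and 2 with the replicate block by donor; members lower were 2 without a filter and 0 with that block, in either experiment alone, with all 20 libraries and by edgeR, and with all libraries the median was 0.41. In TA grafts members lower were 36 on the deposited scale (median −1.0), 6 when centred on the genes read in each library, 1 without a filter, with the block, with all libraries and with the fold limit, and 0 in Experiment 2 alone. In EOM grafts members higher were 3 on the deposited scale, 4 when centred on the genes read in each library, with the stricter filter, from 20 cells, by edgeR and with the fold limit, 1 with the block, 2 with all libraries and 3 without the graft libraries over 40% of mitochondrial reads; members lower were 77 on the deposited scale (median −1.20), 21 when centred on the genes read in each library (median −0.48), 2 when centred on genes read in all 30 libraries, scaled without mitochondrial genes, by edgeR and by DESeq2, and 1 without a filter. The median of the difference between the changes was −0.25 on the deposited scale and −0.17 when centred on the genes read in each library. On the deposited scale these EOM graft changes turned: Atp5j −0.62, Cox4i1 −1.29, Cox6a1 −1.09, Cox7a2 −1.0, Cox8a −1.22, Ndufa4 −1.24, Ndufc2 −0.43, Sdhc −1.22, Uqcrb −0.75 and Uqcrq −0.49, and Cox4i1 was −0.57 when centred on the genes read in each library. That scale is not centred, and all genes shifted by −1.48 there. Leaving out 1 library at a time gave 5 to 7 members higher and 0 to 2 lower in EOM grafts (median 0.02 to 0.20), 3 to 4 and 1 to 4 in TA grafts (−0.17 to −0.03), 1 and 0 to 1 before grafting (−0.01 to 0.12), and 0 and 0 between grafts (−0.23 to −0.06). The block ended the calls of 6 of 7 genes in EOM grafts, of Atp5a1 and Atp5g2 in TA grafts and of Cox11. The 3 graft libraries over 40%, Experiment 1 alone and the leaving out of any compared library were added after seeing the data. The cause of these moves was not tested. Depth limits the isoforms, which have few reads in many libraries.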
